A study of Homo sapiens with 4 samples.

Results

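The genes described here are 9 members of the neurotrophin and GDNF receptor systems, measured by RNA sequencing in the human neuroblastoma cell line SK-N-BE(2). They are the neurotrophin receptor genes NTRK2, NTRK3 and NGFR, the sortilin gene SORT1, the GDNF-family receptor genes RET, GFRA1, GFRA2 and GFRA3, and the neurotrophin gene BDNF. All 9 symbols matched 1 Ensembl identifier each among 64252 rows of a gene count matrix, and 8 of them had enough counts to be among the 19093 genes tested. Cells given an shRNA against IRF2BP2 (sh-IRF2BP2, 2 libraries) were compared with cells given a scramble shRNA (sh-Scb, 2 libraries). All libraries come from this 1 line, and the labels give neither the hairpin sequence nor the time after it was given. The labels name a single IRF2BP2 shRNA, so effects of the target and of that hairpin cannot be told apart. Whether the replicates were cultured apart is not stated, and the p-values therefore reflect only the variation from library to library, which may be technical.

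Library totals were 31871800 and 32082642 counts with the IRF2BP2 shRNA and 34684651 and 30847699 counts with scramble. IRF2BP2 itself, the targeted gene and a transcriptional co-regulator, had 89.6 and 87.5 CPM (counts relative to the library total, scaled by TMM) with its shRNA, against 243 and 238 CPM with scramble. All 10 markers listed for sympathoadrenal neuroblastoma cells had counts, and their summed level was 8718 and 8837 CPM with the IRF2BP2 shRNA, against 8097 and 8492 CPM with scramble. Most of that sum was MYCN, at 7067 and 7167 CPM with the IRF2BP2 shRNA and 5355 and 5511 CPM with scramble. DBH, the enzyme gene of noradrenaline synthesis, had 1.38 and 2.06 CPM with the IRF2BP2 shRNA, against 58.5 and 68.2 CPM with scramble. The 8 Schwann cell markers summed to 2.88 and 2.59 CPM with the IRF2BP2 shRNA and to 1.99 and 2.05 CPM with scramble, with FOXD3 and CDH19 at 0 in every library. Fibroblast and mesenchymal markers summed to 441 and 438 CPM with the IRF2BP2 shRNA and 536 and 519 CPM with scramble. Their members moved in opposite directions: COL1A1 and COL3A1 were called higher with the IRF2BP2 shRNA and LUM, DCN, PDGFRB and THY1 lower (edgeR test). Immune and endothelial markers summed to 4.94 and 4.0 CPM with the IRF2BP2 shRNA and 5.44 and 7.94 CPM with scramble, with CD3E and PECAM1 at 0. What part these marker levels have in the results was not tested. In bulk RNA, fewer cells of a kind and less RNA per cell cannot be told apart.

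Neurotrophins are secreted proteins that keep neurons alive and guide their growth. They bind the Trk receptor tyrosine kinases, while the product of NGFR binds every neurotrophin and, together with sortilin, their unprocessed precursors. GDNF-family ligands first bind a GFRA coreceptor held at the membrane by a lipid anchor, and this complex then activates the receptor tyrosine kinase RET. Both systems act in sympathetic neuron development, and expression of Trk receptors in neuroblastoma has long been studied in relation to tumour behaviour.

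With the IRF2BP2 shRNA most of the receptor genes fell, and so did BDNF. Of the 8 genes tested, 7 fell, 0 rose and GFRA1 was not called (edgeR quasi-likelihood test, Benjamini-Hochberg adjusted p under 0.05 over all genes). Of all genes tested, 21.4% were called lower and 20.6% higher by the same rule, with a median log2 fold change of -0.01, against -1.41 for the 8 genes. At an unadjusted p under 0.05, 0 were higher, as also with DESeq2 and limma voom at an adjusted p under 0.05. NTRK2 passed the filter on low counts only through its scramble libraries, so it could be tested only because it was high there. Of the 7 genes above that filter in all 4 libraries (at least 0.313 CPM each), 6 fell, and their median log2 fold change was -1.09. In a test against a change of 1.5-fold, GFRA2, GFRA3, BDNF and SORT1 passed, all lower, where 5.63% of all genes passed as lower.

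**Figure D1:**
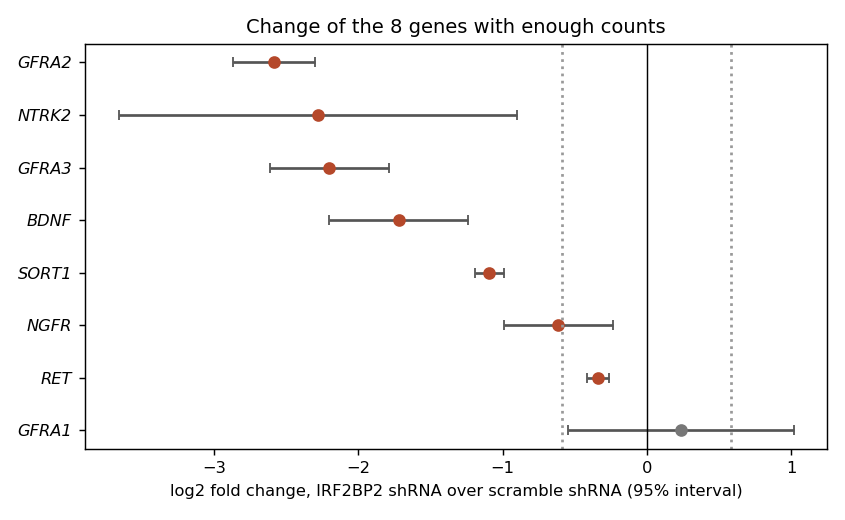
Log2 fold change of the 8 genes tested, IRF2BP2 shRNA over scramble shRNA, with 95% intervals from the edgeR fit (2 libraries a group); coloured points were called, the grey point was not, and dotted lines mark a 1.5-fold change. GFRA2 lies farthest to the left at -2.59, RET has a narrow interval close to 0, and the interval of GFRA1 crosses 0.

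The sizes ran in the order GFRA2, NTRK2, GFRA3, BDNF, SORT1, NGFR and RET. Only 1.01% of the genes tested had a lower log2 fold change than GFRA2, 1.6% lower than GFRA3 and 2.95% lower than BDNF, while 26.7% had one lower than RET. The 95% intervals of GFRA2 (-2.87 to -2.30), GFRA3 (-2.61 to -1.79) and NTRK2 (-3.66 to -0.90) overlapped. The interval of RET (-0.42 to -0.26) lay apart from those of GFRA2, GFRA3, BDNF and SORT1, although differences between genes were not tested.

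RET, the signalling receptor for all GDNF-family ligands, lies on chromosome 10 from 43077027 to 43130351 on the plus strand (GRCh38). Its level was 452 and 447 CPM with the IRF2BP2 shRNA, against 572 and 564 CPM with scramble. Both knockdown libraries lay below both scramble libraries, and libraries of 1 group differed by little. The fall was 1.26-fold (log2 fold change -0.34, standard error 0.04, edgeR adjusted p = 1.76e-05), a change under 1.5-fold. Per kilobase of exon RET stood far above the other genes, at 65.0 ± 0.45 RPKM with the IRF2BP2 shRNA and 82.2 ± 0.82 RPKM with scramble (SD, n = 2 each). RET made up 86.2% and 86.4% of the summed RPKM of the 9 genes with the IRF2BP2 shRNA, against 76.1% and 74.2% with scramble. Among 13610 protein-coding genes compared with it, PSAT1, SNX13 and GRAMD4 had the pattern closest to RET over the 4 libraries (distances of 0.01, 0.02 and 0.02 between centred log2 CPM profiles).

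Promoters of members that fell together are shown to set their sequence side by side. RefSeq sequences on GRCh38.p14, from 250 bases before to 50 after a start, were used for 7 of the 9 genes. NGFR had no entry, and the promoter of GFRA2 is not reported here. The 4 below are the most upstream listed start of RET, GFRA3, SORT1 and BDNF, written 5′ to 3′ on the strand of the gene. RET is at chr10:43076819-43077118 on the plus strand, and GFRA3 at chr5:138274572-138274871, SORT1 at chr1:109397869-109398168 and BDNF at chr11:27721981-27722280 are on the minus strand. Capitals mark matches on either strand to any of 5 motifs, which here are all the GC box GGGCGG.
RET: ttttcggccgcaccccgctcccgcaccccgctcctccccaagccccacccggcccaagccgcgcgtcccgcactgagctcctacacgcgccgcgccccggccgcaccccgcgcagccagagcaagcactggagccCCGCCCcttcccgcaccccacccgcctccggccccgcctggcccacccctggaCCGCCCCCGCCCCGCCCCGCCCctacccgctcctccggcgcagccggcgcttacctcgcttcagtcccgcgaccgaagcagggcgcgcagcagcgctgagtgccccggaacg
GFRA3: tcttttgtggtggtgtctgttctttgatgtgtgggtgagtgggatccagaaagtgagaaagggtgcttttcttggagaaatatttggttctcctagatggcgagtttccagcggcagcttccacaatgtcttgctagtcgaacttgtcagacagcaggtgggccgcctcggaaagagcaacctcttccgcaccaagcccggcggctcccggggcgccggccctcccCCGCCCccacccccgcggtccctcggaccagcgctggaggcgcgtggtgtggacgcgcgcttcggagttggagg
SORT1: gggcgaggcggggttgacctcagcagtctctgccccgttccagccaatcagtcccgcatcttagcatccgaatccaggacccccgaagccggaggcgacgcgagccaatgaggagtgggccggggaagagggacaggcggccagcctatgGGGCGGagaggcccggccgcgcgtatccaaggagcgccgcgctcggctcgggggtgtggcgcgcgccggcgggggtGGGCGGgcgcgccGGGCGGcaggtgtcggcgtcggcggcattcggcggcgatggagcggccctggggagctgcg
BDNF: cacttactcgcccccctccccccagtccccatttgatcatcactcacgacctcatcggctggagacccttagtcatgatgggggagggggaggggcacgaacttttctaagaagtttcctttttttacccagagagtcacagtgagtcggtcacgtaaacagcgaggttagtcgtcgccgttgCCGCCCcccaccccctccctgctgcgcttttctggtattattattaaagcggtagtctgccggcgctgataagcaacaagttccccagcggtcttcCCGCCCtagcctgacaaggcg
The GC box occurred 5 times in the RET window, 4 of them in overlapping or adjoining letters, 3 times for SORT1, 2 times for BDNF and 1 time for GFRA3. It is found in 45% of 35116 promoter windows of the same length. None of these 4 windows held the MYC E-box CACGTG (7.26% of windows), the cyclic AMP element TGACGTCA (1.85%), an IRF-type motif of 2 copies of GAAA with 2 letters of any kind between them (3.57%) or TATAAA (11.5%). A further BDNF start held CACGTG 1 time, and the most upstream NTRK2 start, not printed here, held the IRF-type motif 1 time. G and C made up 78.7% of the RET window, 74.7% of that of SORT1, 61.3% of that of GFRA3 and 56.7% of that of BDNF, against a median of 58.7% over all windows. These matches describe letters only, since the libraries hold no measure of factor binding.

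The GFRA coreceptors changed unequally. GFRA2, the preferred coreceptor of neurturin (chromosome 8, 21690403 to 21812357, minus strand), had 4.06 and 3.62 CPM with the IRF2BP2 shRNA, against 24.2 and 22.0 CPM with scramble. The groups were far apart, with the highest knockdown library well below the lowest scramble library. The fall was 6.0-fold (log2 fold change -2.59, standard error 0.13, edgeR adjusted p = 4.62e-08).

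GFRA3, the coreceptor of artemin (chromosome 5, 138252379 to 138274671, minus strand), had 2.66 and 2.65 CPM with the IRF2BP2 shRNA, against 10.5 and 13.9 CPM with scramble. The scramble libraries differed from each other more than the knockdown libraries did, without overlap between groups. GFRA3 fell 4.60-fold (log2 fold change -2.20, standard error 0.19, edgeR adjusted p = 3.01e-06).

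GFRA1, the preferred coreceptor of GDNF (chromosome 10, 116056925 to 116273467, minus strand), had 1.03 and 1.40 CPM with the IRF2BP2 shRNA and 1.15 and 0.911 CPM with scramble. Those values are 33 and 45 counts, against 40 and 28 counts, and the groups overlapped. GFRA1 was not called, at a log2 fold change of 0.24 with a 95% interval from -0.55 to 1.02 (edgeR adjusted p = 0.640). Changes within these bounds are not excluded by these counts. GFRA1 was the least abundant GFRA gene of the 3 per exon length in every library. Its share of their summed RPKM was 5.03% and 6.98% with the IRF2BP2 shRNA, against 1.3% and 0.87% with scramble.

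Summed per exon length, GFRA1, GFRA2 and GFRA3 came to 2.12 and 2.08 RPKM with the IRF2BP2 shRNA and to 9.51 and 10.8 RPKM with scramble. For every 100 RPKM of RET there were 3.23 ± 0.02 RPKM of GFRA transcripts with the IRF2BP2 shRNA, against 12.3 ± 1.21 RPKM with scramble (SD, n = 2 each). The groups did not overlap (exact permutation test, two-sided, p = 0.333, which is the smallest p that 2 against 2 libraries allow). GFRA3 held the largest share of the sum in every library, at 61.4% and 62.6% with the IRF2BP2 shRNA and 54.3% and 63.4% with scramble.

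**Figure D2:**
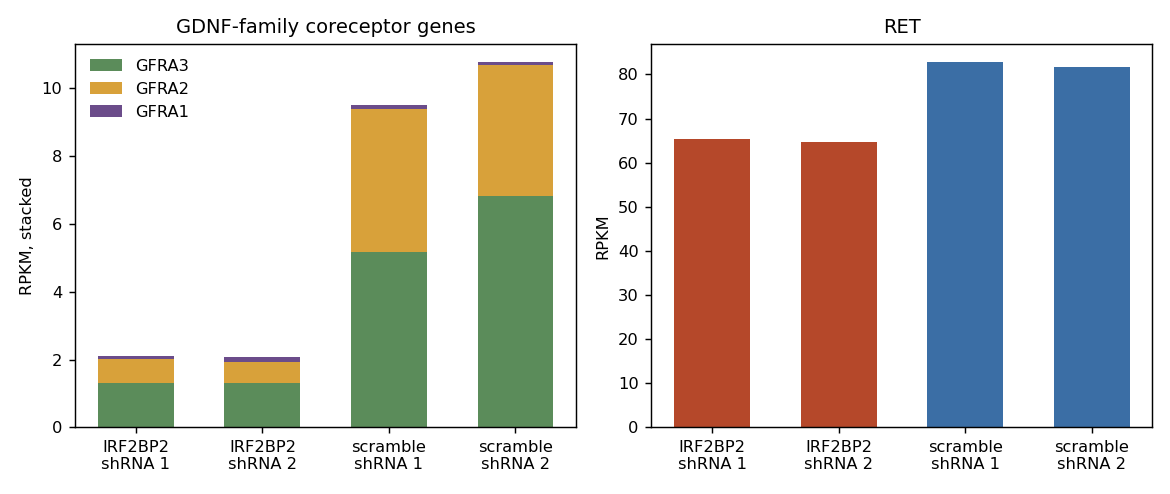
Left, stacked RPKM of GFRA1, GFRA2 and GFRA3 in each library; right, RPKM of RET in each library (IRF2BP2 shRNA libraries left of scramble libraries, axes from 0 with different scales). The coreceptor sum is near 2.1 RPKM in both IRF2BP2 shRNA libraries and near 10 RPKM with scramble, while RET differs by far less.

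Among neurotrophin receptors, SORT1 was the most abundant per exon length. SORT1, a sorting receptor that binds precursor neurotrophins (chromosome 1, 109309568 to 109397951, minus strand), had 60.8 and 57.2 CPM with the IRF2BP2 shRNA, against 124 and 127 CPM with scramble. Both groups were tight and clearly apart. SORT1 fell 2.13-fold (log2 fold change -1.09, standard error 0.05, edgeR adjusted p = 1.45e-08).

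NGFR, the receptor that partners sortilin (chromosome 17, 49495293 to 49515017, plus strand), had 5.91 and 6.52 CPM with the IRF2BP2 shRNA, against 8.32 and 10.7 CPM with scramble. The groups did not overlap, but the gap between them was smaller than the distance between the scramble libraries. NGFR fell 1.53-fold (log2 fold change -0.61, standard error 0.17, edgeR adjusted p = 0.0133). The call was lost without scramble replicate 2 (edgeR adjusted p = 0.121, log2 fold change -0.42) and without IRF2BP2 shRNA replicate 1 (edgeR adjusted p = 0.0686). NGFR also marks Schwann cells and their precursors, whose other markers stood near 0 as given above. Per exon length SORT1 was 4.66 and 3.97 times as abundant as NGFR with the IRF2BP2 shRNA, against 6.76 and 5.38 times with scramble.

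NTRK2, which encodes TrkB, the receptor of BDNF (chromosome 9, 84668551 to 85027070, plus strand), was close to the limit of detection. It had 13 and 2 counts with the IRF2BP2 shRNA, against 45 and 31 counts with scramble, or 0.406 and 0.0624 CPM against 1.30 and 1.01 CPM. The knockdown libraries differed from each other by a large factor. Its log2 fold change was -2.28 (standard error 0.62, edgeR adjusted p = 0.0130). It was -1.49 without IRF2BP2 shRNA replicate 2 (edgeR adjusted p = 0.0532), -4.12 without IRF2BP2 shRNA replicate 1 and -2.08 without scramble replicate 1 (edgeR adjusted p = 0.0597). Gene counts do not separate the kinase form of TrkB from its truncated forms. NTRK3, which encodes TrkC, the receptor of neurotrophin 3 (chromosome 15, 87859751 to 88256768, minus strand), had 0 counts in every library. Over the libraries, 0 counts allow a level of up to 0.0865 to 0.0973 CPM, taking 3 counts as the limit and covering counting error only.

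BDNF, the neurotrophin that binds TrkB (chromosome 11, 27654893 to 27722058, minus strand), had 2.31 and 2.22 CPM with the IRF2BP2 shRNA, against 6.25 and 8.72 CPM with scramble. Every knockdown library lay below every scramble library, and the scramble pair was the wider. BDNF fell 3.30-fold (log2 fold change -1.72, standard error 0.22, edgeR adjusted p = 7.25e-05). BDNF-AS, on the opposite strand, shares 701 bases of exon with BDNF, and with a kit that does not mark strand reads of the 2 genes there cannot be told apart. BDNF-AS had 65 and 31 counts with the IRF2BP2 shRNA and 119 and 78 counts with scramble. These were below the counts of BDNF itself, which were 74 and 71 with the IRF2BP2 shRNA and 217 and 268 with scramble. BDNF-AS was called lower too, by 0.99 on the log2 scale (edgeR adjusted p = 0.0442).

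**Figure D3:**
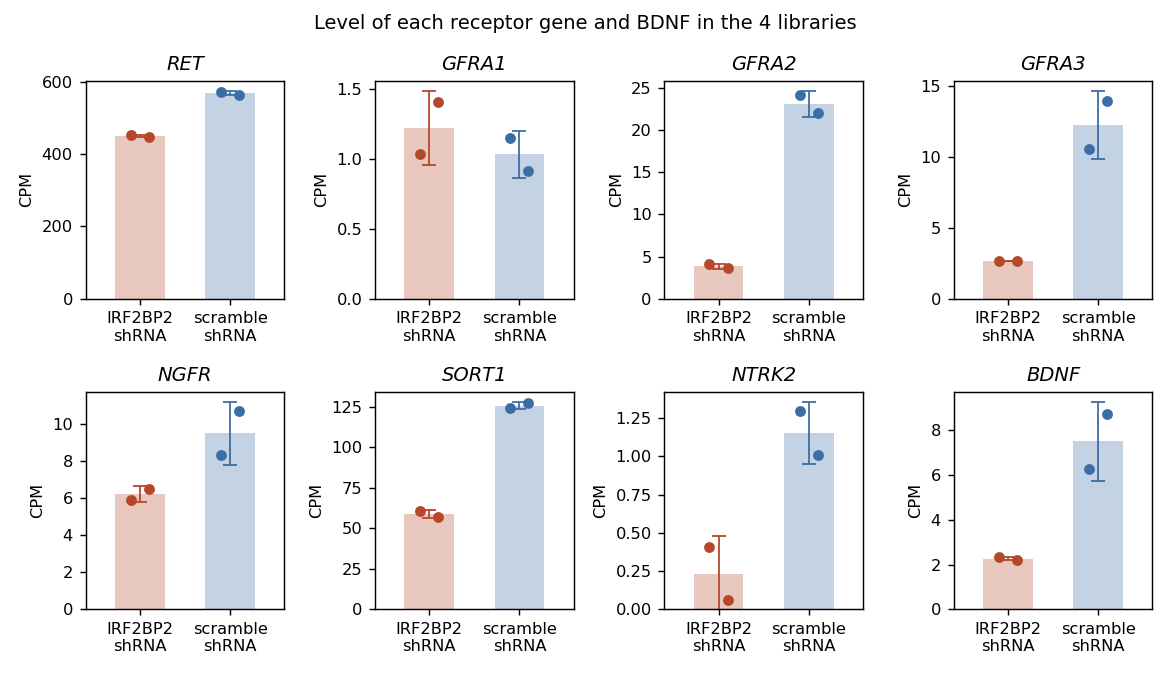
CPM of the 8 genes with counts, in panels with their own linear axis from 0; points are libraries, bars the mean and error bars the SD of 2 libraries, with the IRF2BP2 shRNA at the left. The lower error bar of NTRK2 is cut at 0, and in every panel but that of GFRA1 both IRF2BP2 shRNA points lie below both scramble points.

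Ordered per exon length with the IRF2BP2 shRNA, mean levels were RET 65.0, SORT1 6.44, NGFR 1.5, GFRA3 1.30, GFRA2 0.672, BDNF 0.293, GFRA1 0.126 and NTRK2 0.0115 RPKM. With scramble the RPKM order was RET 82.2, SORT1 13.7, GFRA3 6.0, GFRA2 4.04, NGFR 2.29, BDNF 0.967, GFRA1 0.107 and NTRK2 0.0566. NGFR therefore ranked above GFRA2 and GFRA3 with the IRF2BP2 shRNA and below them with scramble. Libraries of neighbouring genes in either order did not overlap. NGFR (1.42 and 1.57 RPKM) and GFRA3 (1.30 and 1.30 RPKM) with the IRF2BP2 shRNA lay close to each other. The length used is that of all annotated exons merged, which is long for NTRK2 (20363 bases) and NTRK3 (26750 bases) and lowers their RPKM.

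Of the ligands, few had counts. GDNF had 0 counts with the IRF2BP2 shRNA and 0 and 2 counts with scramble. NTF3, the gene of neurotrophin 3, had 0 with the IRF2BP2 shRNA and 0 and 4 with scramble. Neither of these was tested, and NTF4 was not either. Of 4 ligand genes tested, 1 was called higher (GDF15), 1 lower (NRTN) and 2 neither way, shares near the 20.6% and 21.4% over all genes. NRTN, which encodes neurturin, the ligand preferred by the GFRA2 product, was called lower. It had 0.563 and 1.03 CPM with the IRF2BP2 shRNA, against 2.76 and 3.03 CPM with scramble (log2 fold change -1.86, standard error 0.34, edgeR adjusted p = 9.91e-04). ARTN, the artemin gene, was not called at a log2 fold change of -0.35 and an edgeR adjusted p of 0.658. PSPN, the persephin gene, was not called either, at 0.35 on the same scale and an edgeR adjusted p of 0.263. It shares 104 bases of exon with ALKBH7 on the opposite strand. GDF15, a distant relative that signals through GFRAL and RET, had 9.75 and 9.46 CPM with the IRF2BP2 shRNA, against 0.835 and 0.456 CPM with scramble (edgeR adjusted p = 5.05e-07). GFRAL had 0 counts in every library.

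Of the other receptors and coreceptors, 8 could be tested. By the edgeR test 5 of them fell, while 0 rose, and the median of the 8 log2 fold changes was -0.62. Over all genes tested, 21.4% were called lower and 20.6% higher. SORCS2 was above the filter on low counts in 1 of 2 libraries with the IRF2BP2 shRNA. TNFRSF19 was above it in 1 of 2 libraries with scramble, and neither gene was called. At an unadjusted p under 0.05, 0 rose as well. With the replicate number as a block 1 was called higher, as it was without scramble replicate 1. SORL1, a sorting receptor of the sortilin family, had 45.4 and 46.9 CPM with the IRF2BP2 shRNA, against 123 and 122 CPM with scramble (log2 fold change -1.41, edgeR adjusted p = 1.73e-09). Another family member, SORCS1, averaged 38.5 ± 0.23 CPM with the IRF2BP2 shRNA and 61.5 ± 1.42 CPM with scramble (SD, n = 2 each; log2 fold change -0.68). NCAM1, an adhesion molecule that can also bind GDNF, fell by 0.56 on the log2 scale, and RTN4R, the Nogo receptor that forms a complex with the NGFR product, by 0.90. LINGO1, the further partner in that complex, fell by 0.40 and was named after its value was seen. Small antisense genes overlap NCAM1, with at most 82 counts against 2058 to 3434 of NCAM1.

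The 25 adaptors and proximal effectors tested split into 6 that rose, 7 that fell and 12 without a call, around a median of 0.03 on the log2 scale. These shares are near the 20.6% called higher and 21.4% called lower over all genes, so the counts set the adaptors apart in neither direction. DOK4, an adaptor that binds activated RET, averaged 379 ± 7.31 CPM with the IRF2BP2 shRNA and 105 ± 1.21 CPM with scramble (log2 fold change 1.85, SD, n = 2 each, edgeR adjusted p = 9.77e-11). DOK4 shares 89 bases of exon with POLR2C on the opposite strand, which had 6032 and 6161 counts with the IRF2BP2 shRNA and 4448 and 4003 counts with scramble. SHC1, an adaptor shared by Trk and RET receptors, averaged 182 ± 5.46 CPM with the IRF2BP2 shRNA and 325 ± 3.38 CPM with scramble (log2 fold change -0.84, edgeR adjusted p = 4.13e-08). SHC1 shares 335 bases with its neighbour PYGO2. The docking protein gene GAB2 fell by 0.55 and the guanine nucleotide exchange factor gene ARHGEF7 by 0.26 on the log2 scale.

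Among 6 tested genes for cleavage of neurotrophin precursors, 3 rose and 1 fell (median log2 fold change 0.59). PCSK1 was the 1 that fell. Over all genes tested, 20.6% were called higher and 21.4% lower. FURIN, a protease that cuts precursor neurotrophins inside the cell, averaged 55.6 ± 3.28 CPM with the IRF2BP2 shRNA and 25.8 ± 3.44 CPM with scramble (log2 fold change 1.11, edgeR adjusted p = 5.16e-06). PLAT, the plasminogen activator that starts cleavage outside the cell, rose by 1.40 on the log2 scale. PCSK1, a convertase of secretory granules, fell by 1.86 on the log2 scale (edgeR adjusted p = 9.20e-04).

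**Figure D4:**
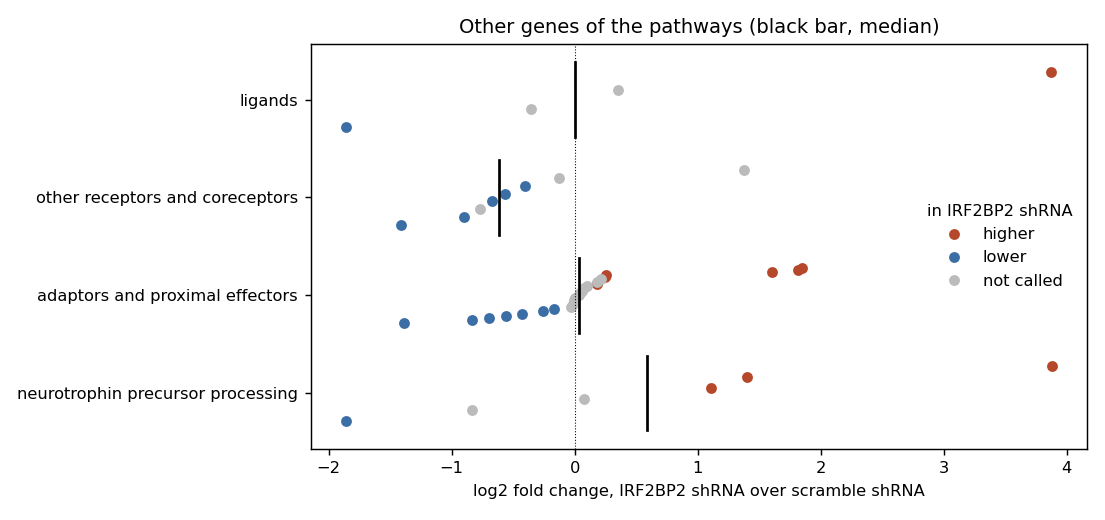
Log2 fold change, IRF2BP2 shRNA over scramble shRNA, of each tested gene in 4 lists of other pathway genes; points are genes, coloured by call, and the black bar is the median of a list. The bar of other receptors and coreceptors lies at -0.62, and the points of the adaptors spread to both sides of 0.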

How the data were processed

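The deposited values are raw counts per gene, 1 column per library, from reads aligned with HISAT2 2.2.0 to hg38 (per the submitters' processing notes). Which counter and annotation followed is not given in the sources used here. Libraries were made with a TruSeq RNA kit, per the labels' protocols. Control columns are named NC and were taken as scramble, as the columns left over once those named for IRF2BP2 are matched. The members, gene lists and tests were chosen with earlier results of these data known.

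Symbols came from a table of gene names (40995 identifiers matched). GENCODE 29 on GRCh38, which held 56591 of the identifiers, gave coordinates, overlaps and merged exon lengths. Counts were tested with edgeR 4.0.16 (R 4.3.3) on all 4 libraries: filterByExpr by group, TMM scaling, robust quasi-likelihood F-test, two-sided, Benjamini-Hochberg adjustment over 19093 genes and a threshold of 0.05. A test against 1.5-fold used glmTreat. CPM are TMM-scaled, and RPKM are CPM per kilobase of merged exons. Standard errors are |log2 fold change| over the square root of F, and intervals use the fit's degrees of freedom. The method was tested on simulated data. Alternatives used DESeq2 1.42.0, limma 3.58.1 voom, other scaling and filters, a replicate block and leaving out each library.

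Named genes were the members, IRF2BP2, the GDNF-family and neurotrophin ligands given, up to 4 called genes with the smallest p per list and the 3 genes nearest to the most abundant called member by pattern. Pattern distance was Euclidean on log2(CPM + 0.5), centred per gene. Some genes that this rule took, and 1 gene list, are not reported here.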

Additional observations from a re-analysis of the deposited data

How the results depend on the processing

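The number of receptor genes and BDNF called lower was 7 with RLE or upper quartile scaling, DESeq2, limma voom and no filter on low counts. With a mean of at least 10 CPM, only 3 remained testable, all of them called lower (RET, SORT1 and GFRA2), and 2 passed the test against 1.5-fold, because the other genes lay under that level. Leaving out any 1 library gave 6 called lower, with NTRK2 or NGFR losing its call, and 4 or 5 past 1.5-fold; the group left with 1 library is then assumed to vary like the other. GFRA2, GFRA3, BDNF, SORT1 and RET were called lower in each alternative that tested them, with log2 fold changes of -2.67 to -2.50, -2.38 to -1.99, -1.93 to -1.46, -1.14 to -1.04 and -0.39 to -0.32. GFRA1 was called in none, with log2 fold changes of 0.00 to 0.44. The counts of the other lists moved by more than 1.5 times in 7 comparisons, 4 of them where only genes with a mean of 10 CPM or more were tested. With the replicate block, 7 genes were called lower and 4 passed 1.5-fold, and it changed no call of the 9 genes. Same-numbered libraries had deviations correlated at 0.25, but with 2 pairs and no label that ties the numbers the pairing is only a hint. Depth limits NTRK2, NTRK3 and GFRA1, whose libraries held at most 45 counts.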

Other observations

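PCSK6, a convertase gene of the precursor list, had 3 and 51 counts with the IRF2BP2 shRNA and 47 and 51 counts with scramble, so IRF2BP2 shRNA replicate 1 stood apart from the other 3 libraries for this gene. It was not called (edgeR adjusted p = 0.662, log2 fold change -0.83, standard error 1.23). DOK5, an adaptor gene of the RET and Trk receptors, had 27 and 8 counts with the IRF2BP2 shRNA and 0 counts in both scramble libraries, and it did not pass the filter on low counts. Both genes were chosen after their values were seen.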
